A study of Mus musculus with 9 samples.

Results

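Major histocompatibility complex (MHC) class I molecules and the proteins that load them with peptide were followed through 9 genes: the classical heavy chains H2-K1 and H2-D1, the nonclassical heavy chains H2-Q7, H2-T22 and H2-T23, the light chain B2m, the transporter subunits Tap1 and Tap2, and Tapbp (tapasin). All probes that the platform annotation pairs with 1 of these symbols were taken, 11 of 24613 probes, and they cover 8 of the 9 genes. H2-Q7 was paired with no probe there and was not analysed here. The array names 15967 genes in all. Each of H2-K1, H2-T22 and B2m had more than 1 probe, and probes of 1 gene are not independent measures of a group.

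RNA was measured on 9 Illumina mouse BeadArrays of cultured primary glia (astrocytes, microglia and other support cells of nervous tissue), 3 arrays for each of 3 kinds of pups aged P1-P3. Nontransgenic cultures are labelled B6SJL 2Gur/J. SOD1-G93A cultures, labelled B6SJL-Tg(SOD1*G93A)2Gur/J, carried the human superoxide dismutase 1 gene with the G93A change found in familial amyotrophic lateral sclerosis, and SOD1-WT cultures, labelled B6SJL-Tg(SOD1)2Gur/J, carried the unmutated human gene. Shared by all groups were the B6SJL stock, a mix of the C57BL/6 and SJL strains, the stripping of the meninges, growth to confluence in medium with 10% horse serum, and the absence of any drug or cytokine treatment from the labels. The labels do not give the tissue region, litter, sex or H2 haplotype of the pups, and the transgene is present in every cell of a culture, whatever its type. The study calls the samples biological replicates without saying whether they came from separate litters, so the p-values measure the spread between these samples.

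An MHC class I molecule is a heavy chain held together with beta-2-microglobulin, the product of B2m, around a short peptide. TAP1 and TAP2 form the pump that brings cytosolic peptides into the endoplasmic reticulum, and tapasin bridges the pump to empty heavy chains and helps them pick up peptide. Classical molecules show these peptides to CD8 T cells, whereas Qa-1, the product of H2-T23, mainly carries leader peptides of classical heavy chains and is read by the CD94/NKG2 receptors of natural killer cells, and the H2-T22 product binds gamma-delta T-cell receptors without peptide. Glia hold little class I in the resting brain and raise it in response to interferons. All members but B2m lie in the H2 complex on chromosome 17, where inbred strains differ strongly in sequence, while B2m lies on chromosome 2.

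The upstream 250 bases of the heavy chain genes with a probe and of B2m are shown because the heavy chains changed to different extents below. Whether the motifs bear on those changes was not tested. A further reason is that exact letter patterns of 2 inducible elements of class I genes matched different members. Sequences are those of RefSeq for the reference assembly GRCm38.p6, written 5′ to 3′ toward the transcription start, with the motif found in capitals. H2-K1 (chr17:34000348-34000597, minus strand) and H2-D1 (chr17:35262844-35263093, plus strand) held the palindromic NF-kappaB motif, GGGGA and TCCCC with any base between them. H2-T23 (chr17:36032702-36032951, minus strand), H2-T22 (chr17:36042743-36042992, minus strand) and B2m (chr2:122147437-122147686, plus strand) held the interferon-stimulated response element (ISRE) motif, GAAA and GAAA with any 2 bases between them, read on the opposite strand in the first and second of these.
H2-K1: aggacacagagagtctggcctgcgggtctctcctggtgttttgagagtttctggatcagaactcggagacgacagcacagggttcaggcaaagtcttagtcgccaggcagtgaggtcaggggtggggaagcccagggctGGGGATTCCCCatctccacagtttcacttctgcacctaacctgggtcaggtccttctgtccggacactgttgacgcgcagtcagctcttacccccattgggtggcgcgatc
H2-D1: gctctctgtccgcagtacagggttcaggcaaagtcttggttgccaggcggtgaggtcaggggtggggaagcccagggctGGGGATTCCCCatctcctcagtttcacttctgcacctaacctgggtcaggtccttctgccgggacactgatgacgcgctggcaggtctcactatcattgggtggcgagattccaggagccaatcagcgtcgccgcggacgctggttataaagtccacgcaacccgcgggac
H2-T23: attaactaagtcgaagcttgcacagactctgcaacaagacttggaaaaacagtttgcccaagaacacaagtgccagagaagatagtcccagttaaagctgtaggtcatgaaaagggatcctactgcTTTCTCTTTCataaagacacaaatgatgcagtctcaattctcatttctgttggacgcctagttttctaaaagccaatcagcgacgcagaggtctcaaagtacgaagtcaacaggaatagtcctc
H2-T22: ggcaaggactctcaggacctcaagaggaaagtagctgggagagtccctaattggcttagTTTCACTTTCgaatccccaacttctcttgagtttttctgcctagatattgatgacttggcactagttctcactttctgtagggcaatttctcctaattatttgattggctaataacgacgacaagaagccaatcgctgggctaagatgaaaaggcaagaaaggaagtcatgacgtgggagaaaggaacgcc
B2m: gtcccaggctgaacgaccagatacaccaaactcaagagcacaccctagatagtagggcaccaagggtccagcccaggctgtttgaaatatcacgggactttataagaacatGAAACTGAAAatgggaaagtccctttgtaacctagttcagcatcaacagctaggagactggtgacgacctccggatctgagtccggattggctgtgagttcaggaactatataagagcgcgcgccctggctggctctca

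Motifs were searched as exact letters on both strands from 250 bases before the start site to shortly after it. No searched window of the members matched both the ISRE and the NF-kappaB pattern. The windows of Tap1, Tapbp and H2-Q7, a nonclassical heavy chain, matched neither, so the patterns do not split all heavy chains by class. Near matches were not counted, such as agtttcacttct in H2-K1, H2-D1 and H2-Q7, or ggggattccca in H2-Q7. The lack of a match therefore does not mean that an element is absent. The ISRE motif began at base -124 of H2-T23 and base -191 of H2-T22, and at base -139 of B2m, counted from the start site. It stood in 3.44% of 32851 promoter windows of the same length. The NF-kappaB motif began at base -111 of H2-K1 and base -171 of H2-D1, and was rarer, in 16 windows or 0.0487% of them. The CCAAT box, CCAAT, was in every searched window of the members, H2-Q7, Tap1 and Tapbp included, but also in 37.4% of all windows. H2-K1 has more than 1 listed start, and only the window of the more upstream start was searched for the members and is printed. Tap2 had no window in the table. A match of letters is a description, and the windows come from the reference strain and not from these cultures.

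Arrays of all groups were of similar depth. Between 13107 and 13618 probes were detected per array, which means a detection p under 0.01, and the member probes rested on 20 to 58 beads per array. Mean raw intensity was 211 to 236 on 8 arrays and 280 on SOD1-WT replicate 3, whose median bead error was also higher (6.84% against 5.08% to 5.23%). Values below are log2 intensities after background correction and quantile normalisation, on which undetected probes lie near 4. Levels are compared only within a probe. Astrocyte markers were present in all groups, with Gfap, Aqp4, Slc1a3 and Gja1 detected on 9 arrays. Of 9 astrocyte markers, 2 were higher and 2 lower in SOD1-G93A than in nontransgenic cultures, and 1 higher and 0 lower than in SOD1-WT. In SOD1-WT against nontransgenic 4 were higher and 1 lower. The shares with an adjusted p under 0.05 were 44.4%, 11.1% and 55.6%, beside 11.4%, 16.4% and 27% of all measured genes. In SOD1-G93A against nontransgenic cultures Gfap was higher by 0.76 and Aqp4 by 0.73 (limma, adjusted p = 0.00441 and 0.000356). Slc1a2 was detected on 5 arrays and on 0 of the 3 SOD1-G93A arrays, where it was at least 1.14-fold lower than in nontransgenic cultures (limma, adjusted p = 0.0382). S100b was lower in SOD1-G93A than in nontransgenic cultures by -0.50 (limma, adjusted p = 0.0377). Detected markers also included 15 of 16 microglial markers with a probe, P2ry12 being detected on 0 arrays. The summed intensity of 13 fibroblast and meningeal markers was 34165 to 36349 in nontransgenic, 26663 to 27668 in SOD1-G93A and 5639 to 7191 in SOD1-WT cultures. The Y-linked Kdm5d was detected on the 3 SOD1-WT arrays and on none of the other 6, and of the other Y-linked genes with a probe Eif2s3y was detected on 2 of the SOD1-WT arrays alone and Uty on 0 arrays. Meningeal marker levels, these astrocyte markers and a Y-linked gene thus moved with the groups, and their part in each result below was not tested. In these bulk samples fewer cells of a type and less RNA per cell cannot be told apart.

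In SOD1-G93A cultures the signal of the nonclassical heavy chain probes fell against both controls. The changes of H2-K1, B2m and the peptide loading genes against nontransgenic cultures, from -0.21 to 0.22, did not pass the test. Against SOD1-WT, H2-K1 and Tap1 were lower too, by -0.69 and -0.46, and Tap2 was higher by 0.33, while B2m and Tapbp did not pass. Whether sequence under a probe differs between the groups was not tested. Against nontransgenic glia 3 of the 8 member probes kept by the detection filter were lower and 0 were higher, beside 10.6% of all 13972 kept probes called in either direction, 5.53% called lower and 5.11% called higher. Against SOD1-WT glia 5 were lower and 1, Tap2, was higher, beside 15% of all kept probes called, 8.13% lower and 6.91% higher. In SOD1-WT against nontransgenic glia 3 were higher and 0 lower, beside 25.3% called, 13.5% higher and 11.8% lower. The median log2 change of the 8 probes was -0.20, -0.57 and 0.23 in these comparisons, and that of all kept probes 0.01, 0.01 and 0.00. The comparisons share arrays, so their counts are not independent. All 3 kept nonclassical probes were lower in both SOD1-G93A comparisons.

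**Figure D1:**
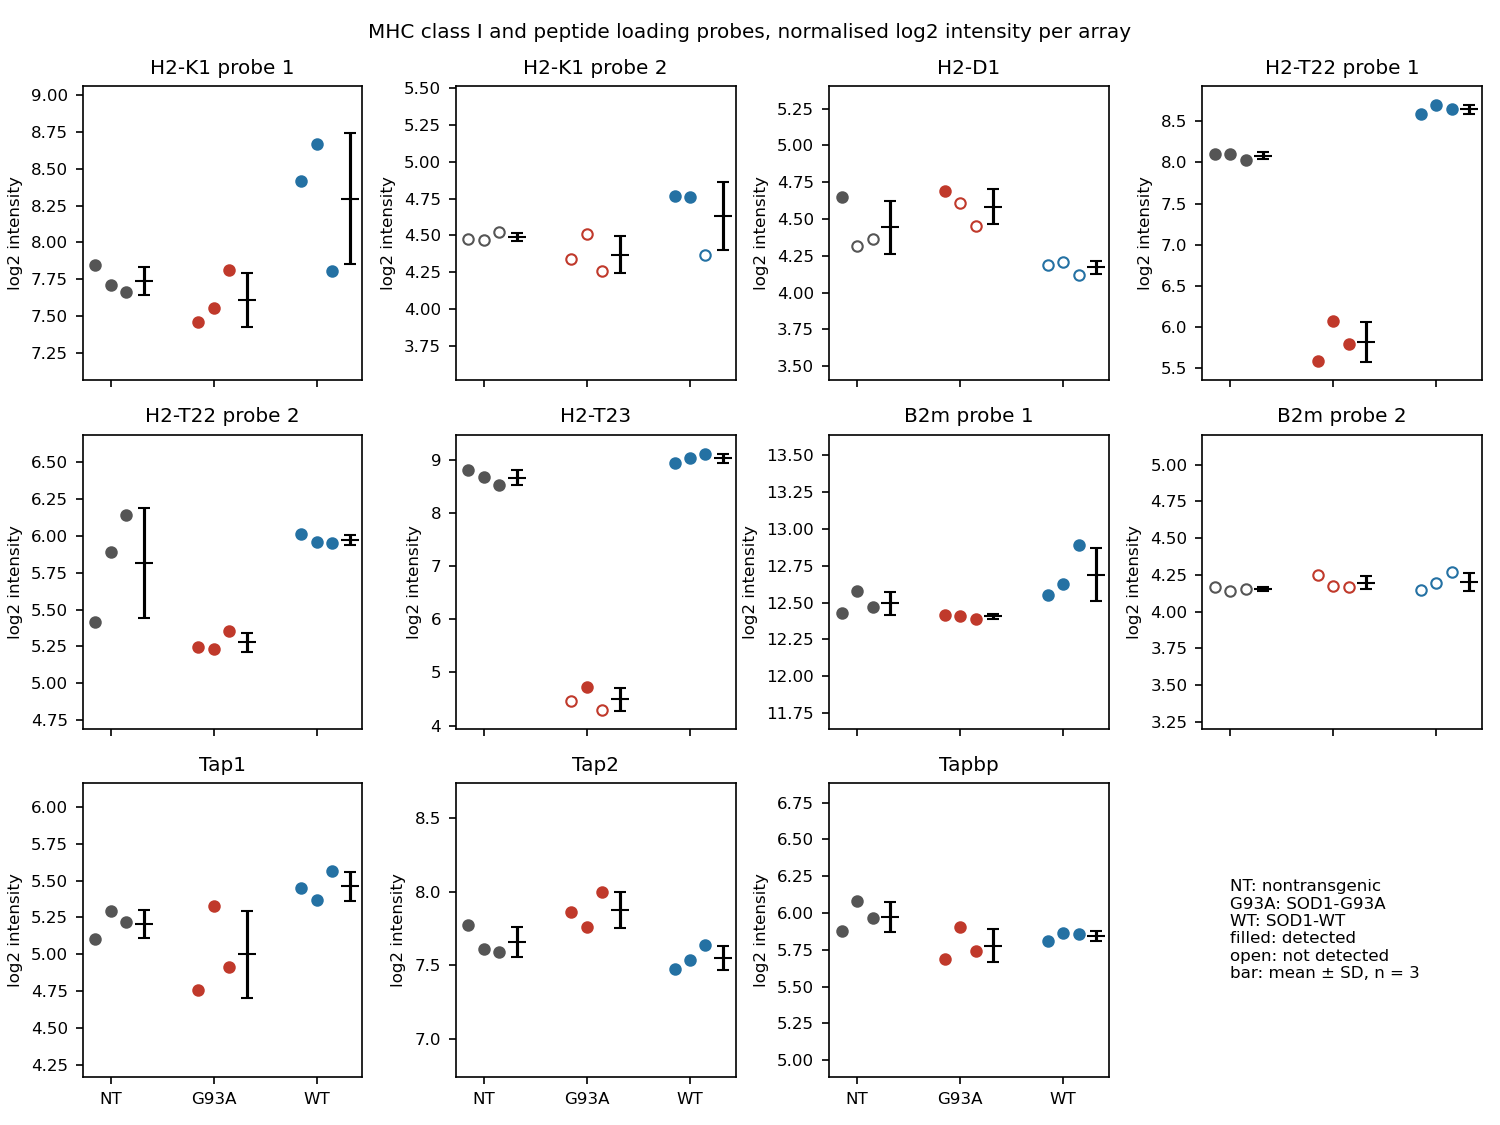
Normalised log2 intensity (vertical axis) of the 11 member probes on each of the 9 arrays, by group (horizontal axis), with filled points for detected and open points for undetected arrays, and bars for the mean ± SD (n = 3). H2-T23 and the first H2-T22 probe drop apart in SOD1-G93A cultures, to means of 4.49 and 5.82, whereas the points of the first B2m probe stay between 12.39 and 12.89.

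H2-T23, which encodes the Qa-1 heavy chain, went from a clear signal to the edge of detection. Its log2 intensity was 8.81, 8.67 and 8.52 in nontransgenic cultures, 4.46, 4.72 and 4.30 in SOD1-G93A cultures and 8.94, 9.03 and 9.11 in SOD1-WT cultures, in order of replicate. The SOD1-G93A values lay far below all others, and only SOD1-G93A replicate 2 was called detected in that group. On the raw scale these were intensities of 451, 409 and 390 in nontransgenic, 32.2, 37.3 and 28.3 in SOD1-G93A, and 487, 512 and 680 in SOD1-WT cultures. The change was -4.17 ± 0.12 (SE, n = 3 per group; 95% interval -4.43 to -3.91) against nontransgenic cultures, an 18-fold lower signal (limma, adjusted p = 4.51e-11). Against SOD1-WT it was -4.53 ± 0.12, a 23.2-fold lower signal (limma, adjusted p = 1.478e-11). Since the low group sits at background, both folds depend on the background offset. H2-T23 was also higher in SOD1-WT than in nontransgenic cultures, by 0.36 ± 0.12 without overlap (limma, adjusted p = 0.0401). That small rise was no longer called when nontransgenic replicate 2 or 3, or replicate 1 of SOD1-G93A, or replicate 2 or 3 of SOD1-WT was left out, or with no filter (adjusted p 0.0226 to 0.147 over all alternatives).

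H2-T22, whose product is a ligand of gamma-delta T cells, was read by 2 kept probes that moved the same way by different amounts. The first gave 8.10, 8.10 and 8.03 in nontransgenic, 5.59, 6.08 and 5.80 in SOD1-G93A, and 8.59, 8.69 and 8.65 in SOD1-WT cultures. The groups were fully separate, SOD1-G93A lowest and SOD1-WT highest, and the probe was detected on every array. It was lower in SOD1-G93A by -2.26 ± 0.12 against nontransgenic (4.78-fold; limma, adjusted p = 2.61e-08) and by -2.82 ± 0.12 against SOD1-WT (7.07-fold; adjusted p = 1.07e-09). SOD1-WT exceeded nontransgenic by 0.56 ± 0.12 (limma, adjusted p = 0.00255). The order nontransgenic below SOD1-WT and above SOD1-G93A thus held beyond the spread for this probe.

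The second H2-T22 probe gave 5.41, 5.89 and 6.15 in nontransgenic, 5.24, 5.23 and 5.35 in SOD1-G93A, and 6.02, 5.96 and 5.95 in SOD1-WT cultures. SOD1-G93A was again the lowest group without overlap, but nontransgenic replicate 1 came close to it. Its change was -0.54 ± 0.15 against nontransgenic (limma, adjusted p = 0.0296) and -0.70 ± 0.15 against SOD1-WT (adjusted p = 0.00448). SOD1-WT and nontransgenic were not told apart (0.16 ± 0.15, limma, adjusted p = 0.490). The call against nontransgenic was lost without nontransgenic replicate 2 or 3, without any 1 of the SOD1-G93A arrays, with the authors' normalised table or with no filter (adjusted p 0.00102 to 0.119 over all alternatives, and a change of -0.38 without nontransgenic replicate 3). The 2 probes differed in their change by -1.72 against nontransgenic and -2.12 against SOD1-WT, with no overlap of the per-array differences. An exact two-sided permutation test gave p = 0.1 in each, the smallest that 3 arrays against 3 allow, and an adjusted p of 0.15 over 3 such tests. H2-T22 has near-identical neighbours, H2-T9 and H2-T10 among them, and which of these transcripts each probe binds was not tested.

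H2-K1, the classical K heavy chain, did not share the fall against nontransgenic cultures. Its first probe gave 7.84, 7.71 and 7.66 in nontransgenic, 7.46, 7.55 and 7.81 in SOD1-G93A, and 8.42, 8.67 and 7.80 in SOD1-WT cultures. SOD1-G93A and nontransgenic values were mixed, and SOD1-WT replicates 1 and 2 stood above the rest while replicate 3 did not. The change in SOD1-G93A against nontransgenic was -0.13 ± 0.18 with a 95% interval of -0.51 to 0.25 (limma, adjusted p = 0.759). Against SOD1-WT it was lower by -0.69 ± 0.18 (adjusted p = 0.0160), and SOD1-WT exceeded nontransgenic by 0.56 ± 0.18 (adjusted p = 0.0316), with overlapping groups in both. The first of these calls was lost on leaving out replicate 1 or 2 of either group and with no filter (adjusted p 0.000152 to 0.0921 over all alternatives). The second was lost without nontransgenic replicate 2 or 3 or SOD1-WT replicate 1 or 2, with no filter and with the 2 groups alone (adjusted p 0.000313 to 0.135). Without SOD1-WT replicate 2 the rise of SOD1-WT over nontransgenic was 0.37.

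The other classical probes were at the edge of detection. The second H2-K1 probe was detected on SOD1-WT replicates 1 and 2 and on no other array, with log2 intensities of 4.26 to 4.77 throughout, and did not enter the test. The H2-D1 probe, for the classical D heavy chain, gave 4.65, 4.31 and 4.36 in nontransgenic, 4.69, 4.61 and 4.45 in SOD1-G93A, and 4.19, 4.21 and 4.12 in SOD1-WT cultures. It was detected on nontransgenic replicate 1 and SOD1-G93A replicate 1 alone and had only a bound elsewhere. With no filter on detection H2-D1 was higher in SOD1-G93A cultures than in SOD1-WT by 0.41 ± 0.10 (limma, adjusted p = 0.037), where only SOD1-G93A replicate 1 of the 6 arrays compared was detected. The classical class was therefore measured well by 1 probe only.

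Set against that H2-K1 probe array by array, H2-T23 changed by -4.04 ± 0.21 (SE) more in SOD1-G93A against nontransgenic cultures and by -3.85 ± 0.36 more against SOD1-WT. For the first H2-T22 probe the same differences were -2.13 ± 0.17 and -2.13 ± 0.30. In these 4 contrasts the per-array differences of the groups did not overlap, and the exact two-sided permutation p was 0.1, the smallest possible, with an adjusted p of 0.225 over 9 tests. The second H2-T22 probe differed from H2-K1 by -0.41 ± 0.28 (exact permutation p = 0.3) and -0.01 ± 0.26 (exact permutation p = 1). Between SOD1-WT and nontransgenic cultures nonclassical and classical probes were not told apart, with differences of -0.20, 0.01 and -0.40 and exact permutation p of 0.6, 1 and 0.3. These contrasts were set up after the values had been seen.

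**Figure D2:**
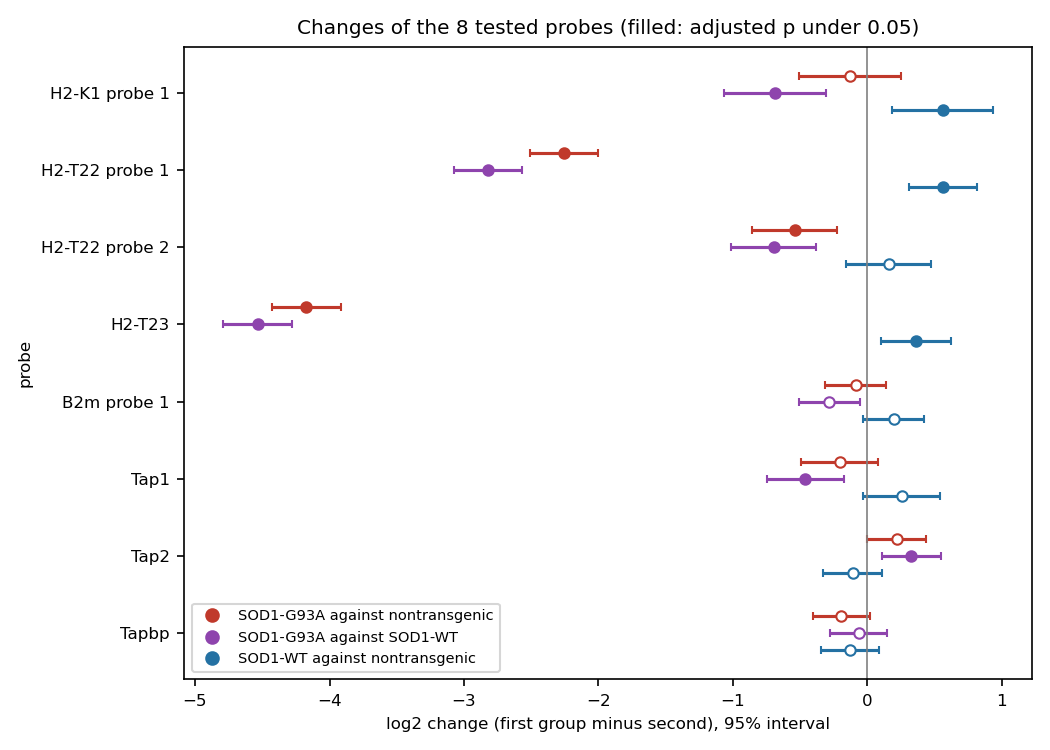
Log2 change (horizontal axis, first group minus second) with its 95% interval for the 8 tested member probes (vertical axis) in the 3 comparisons, filled where the adjusted p was under 0.05. The falls of H2-T23 and the first H2-T22 probe in SOD1-G93A glia, -4.17 and -2.26 against nontransgenic, lie apart from the other members, all of which lie between -0.70 and 0.56.

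B2m, the light chain that every class I molecule needs, passed the test in no comparison. Its first probe gave 12.43, 12.58 and 12.47 in nontransgenic, 12.42, 12.41 and 12.39 in SOD1-G93A, and 12.56, 12.62 and 12.89 in SOD1-WT cultures. The SOD1-G93A arrays were the lowest and close together, and only just below the nearest nontransgenic array. The change was -0.09 ± 0.11 against nontransgenic (interval -0.32 to 0.14; limma, adjusted p = 0.717) and -0.28 ± 0.11 against SOD1-WT (interval -0.51 to -0.06; adjusted p = 0.0930). The latter passed the threshold with a trended, robust variance model (adjusted p = 0.032). SOD1-WT against nontransgenic gave 0.20 ± 0.11 (adjusted p = 0.205). The second B2m probe was detected on no array, at 4.14 to 4.27, so the gene's other probe carries all of its signal.

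The peptide transporter subunits differed between the transgenic groups in opposite directions. Tap1 gave 5.10, 5.30 and 5.22 in nontransgenic, 4.76, 5.33 and 4.91 in SOD1-G93A, and 5.45, 5.37 and 5.57 in SOD1-WT cultures. SOD1-G93A replicate 2 lay just above the nontransgenic arrays and the other 2 below them, and all SOD1-WT arrays lay above both groups. Tap1 was lower in SOD1-G93A than in SOD1-WT by -0.46 ± 0.13 (limma, adjusted p = 0.0316), while its changes of -0.21 ± 0.13 against nontransgenic (adjusted p = 0.425) and 0.26 ± 0.13 in SOD1-WT against nontransgenic (adjusted p = 0.192) did not pass. The call ended on leaving out replicate 1 or 3 of either transgenic group, with no filter and with the 2 groups alone (adjusted p 0.00318 to 0.153).

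Tap2 gave 7.78, 7.61 and 7.59 in nontransgenic, 7.87, 7.76 and 8.0 in SOD1-G93A, and 7.47, 7.54 and 7.64 in SOD1-WT cultures. All SOD1-G93A values were above those of SOD1-WT, and nontransgenic values lay between and overlapped with both. Tap2 was higher in SOD1-G93A cultures than in SOD1-WT by 0.33 ± 0.10 (limma, adjusted p = 0.0457), with 0.22 ± 0.10 against nontransgenic (adjusted p = 0.231) and -0.11 ± 0.10 between SOD1-WT and nontransgenic (adjusted p = 0.492). Among the calls of member probes this was the least stable: it held in 9 of 19 alternatives (adjusted p 0.025 to 0.214). It ended with the replicate block (0.0541), with median centring, with the authors' table and with the 2 groups alone. The call was also lost without 1 of 6 arrays (nontransgenic replicates 2 and 3, SOD1-G93A replicates 1 and 3, and SOD1-WT replicates 1 and 2). Tapbp, the tapasin gene, gave 5.88, 6.08 and 5.96 in nontransgenic, 5.69, 5.90 and 5.74 in SOD1-G93A, and 5.81, 5.87 and 5.86 in SOD1-WT cultures. The groups overlapped in both SOD1-G93A comparisons, and its changes of -0.20, -0.07 and -0.13 had adjusted p of 0.272, 0.741 and 0.382 (limma).

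The rest of the antigen processing machinery was followed through 22 listed genes of proteasomes, peptidases and chaperones. Of 17 genes measured, 0 were higher and 1 lower in SOD1-G93A against nontransgenic, 0 and 2 against SOD1-WT, and 2 and 0 in SOD1-WT against nontransgenic, with median changes of 0.01, 0.14 and -0.13. These are 5.88%, 11.8% and 11.8% of the list, beside 11.4%, 16.4% and 27% of all 9842 measured genes, whose medians were 0.01, 0.01 and 0.00. Psmb9, an inducible catalytic subunit of the immunoproteasome whose gene lies next to Tap1, was lower in SOD1-G93A by -1.47 ± 0.15 against nontransgenic (limma, adjusted p = 1.31e-05) and by -1.95 ± 0.15 against SOD1-WT (adjusted p = 3.89e-07). Its rise of 0.48 in SOD1-WT against nontransgenic was lost without nontransgenic replicate 1 or 3, without SOD1-WT replicate 1 or 2, or with no filter. Psmb8, an immunoproteasome subunit encoded nearby, gave 0.20, 0.42 and -0.22 and passed in no comparison. Ide, a peptide-degrading protease, was lower in SOD1-G93A than in SOD1-WT by -0.54 and higher in SOD1-WT than in nontransgenic cultures by 0.46.

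Other class I and class I-like genes were mostly not measured: 10 of 40 listed genes had a kept probe. Of these 4 were lower and 0 higher in SOD1-G93A against nontransgenic (median change -0.40), 5 lower and 2 higher against SOD1-WT (-0.28), and 3 higher and 2 lower in SOD1-WT against nontransgenic (0.18). The shares called were 40%, 70% and 50%, beside 11.4%, 16.4% and 27% of all measured genes. H2-T10 was lower in SOD1-G93A by -0.59 ± 0.09 (limma, adjusted p = 0.000692) and -0.95 ± 0.09 (adjusted p = 4.86e-06). H2-T9 was lower by -0.41 ± 0.11 and -0.68 ± 0.11 on the probe with the higher signal, and by -0.57 against SOD1-WT on its other probe, which did not pass against nontransgenic (-0.31). Both are close to H2-T22 in sequence, and which of these transcripts their probes bind was not tested either. One H2-Q6 probe was lower against SOD1-WT by -1.31 ± 0.13, while the other gave -0.05 and did not pass. Against nontransgenic the fall of H2-Q6 (-0.46) was called in 9 of 19 alternatives (adjusted p 0.0134 to 0.177), and not with normexp without control probes, no background correction, median centring or no filter, and that of H2-T9 in 14 of 19 (0.00683 to 0.11). Both calls were lost without 1 array in several cases (any 1 of nontransgenic replicates 2 and 3 and SOD1-G93A replicates 1 and 2 for both, nontransgenic replicate 1 for H2-T9, and SOD1-G93A replicate 3 or SOD1-WT replicate 2 for H2-Q6). Fcgrt, the neonatal Fc receptor that also pairs with B2m, was lower in SOD1-G93A than in nontransgenic cultures by -0.44 ± 0.10, higher than in SOD1-WT by 0.77 ± 0.10 and lower in SOD1-WT than in nontransgenic by -1.21 ± 0.10. Its first change lost its call without SOD1-G93A replicate 2 (adjusted p = 0.0557, range 0.00288 to 0.0557).

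Interferon-induced genes respond to the cytokines that also raise class I. Of 16 measured, 4 were higher and 1 lower in SOD1-G93A against nontransgenic, 3 higher and 4 lower against SOD1-WT, and 7 higher and 1 lower in SOD1-WT against nontransgenic, with medians of 0.17, -0.08 and 0.33. The shares called were 31.2%, 43.8% and 50%, against 11.4%, 16.4% and 27% of all measured genes. Parp12, an antiviral ADP-ribosyltransferase, was higher in SOD1-G93A by 2.54 ± 0.11 (limma, adjusted p = 4.30e-09) and 2.47 ± 0.11 (adjusted p = 2.01e-09). It was detected on 2 arrays of each control group, at group means of 4.65 and 4.72 near background, so the size of these changes depends on the background offset. Cxcl10, a chemokine for T cells, was undetected on the nontransgenic arrays and at least 2.92-fold higher in SOD1-G93A and at least 4.02-fold higher in SOD1-WT cultures. Ifi47, an interferon-induced GTPase, was lower in SOD1-G93A than in nontransgenic cultures by -0.91 ± 0.13 and lowest in SOD1-WT, by -1.63 ± 0.13.

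Of 19 measured genes for class I transcription and interferon signalling, 0 were higher and 1 lower, 1 and 1, and 1 and 2 in the same order of comparisons, with medians of 0.04, 0.03 and -0.04. That is 5.26%, 10.5% and 15.8% of the list, next to 11.4%, 16.4% and 27% of all measured genes. Stat2, a transcription factor of the type I interferon response, was lower in SOD1-G93A by -1.31 ± 0.11 (limma, adjusted p = 2.50e-06) and -0.52 ± 0.11 (adjusted p = 0.00457), and lower in SOD1-WT than in nontransgenic cultures by -0.79 ± 0.11. In SOD1-G93A cultures Stat2 was detected on 1 array, at a group mean of 4.58 near background, so the size of its falls there depends on the background offset. Irf1, which binds ISRE motifs in class I promoters, was lower in SOD1-WT than in nontransgenic cultures by -0.57 on its brightest probe and by -0.54 on another, and did not pass on its remaining 2 probes. Of the genes for class I receptors and coreceptors, 2 of 18 were measured and 0 passed in any comparison.

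The H2 complex around the members also held genes of other functions with large falls in SOD1-G93A cultures. Between Daxx and Mog, 258 listed genes in chromosome order, 108 kept probes of 85 genes were not members. In SOD1-G93A against nontransgenic 16 of these were called (14.8%, 4 higher and 12 lower), 34 against SOD1-WT (31.5%, 13 higher and 21 lower), and 28 in SOD1-WT against nontransgenic (25.9%, 14 and 14). Of all kept probes 10.6%, 15% and 25.3% were called in these comparisons. The median changes of the 108 non-member probes were -0.05, -0.05 and 0.02. Abhd16a, a lipid hydrolase gene, was lower in SOD1-G93A by -4.04 ± 0.23 (limma, adjusted p = 5.62e-08) and -5.03 ± 0.23 (adjusted p = 2.47e-09), and was detected on 1 of the 3 SOD1-G93A arrays. One probe of Vps52, a vesicle tethering gene, and that of Wdr46, a nucleolar protein gene, were undetected in SOD1-G93A and at least 2.00-fold and 1.96-fold lower than in nontransgenic cultures, and at least 2.94-fold and 2.57-fold lower than in SOD1-WT. The other Vps52 probe was detected on the 3 SOD1-G93A arrays, gave -0.02 and -0.14, and did not pass. Prrc2a was lower against nontransgenic by -1.16 ± 0.12 and C2, a complement protease, by -1.24 ± 0.14. Against SOD1-WT, Zbtb12 was lower by -1.35 ± 0.10 and Ring1, a Polycomb subunit, at least 2.06-fold lower. In SOD1-WT against nontransgenic cultures C2 was lower by -2.89 ± 0.14, both Tnxb probes by -1.27 and -1.46, and Ring1 higher by 0.98. The H2 sequence of the cultures was not in the labels, and whether sequence under a probe differs between the groups was not tested.

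**Figure D3:**
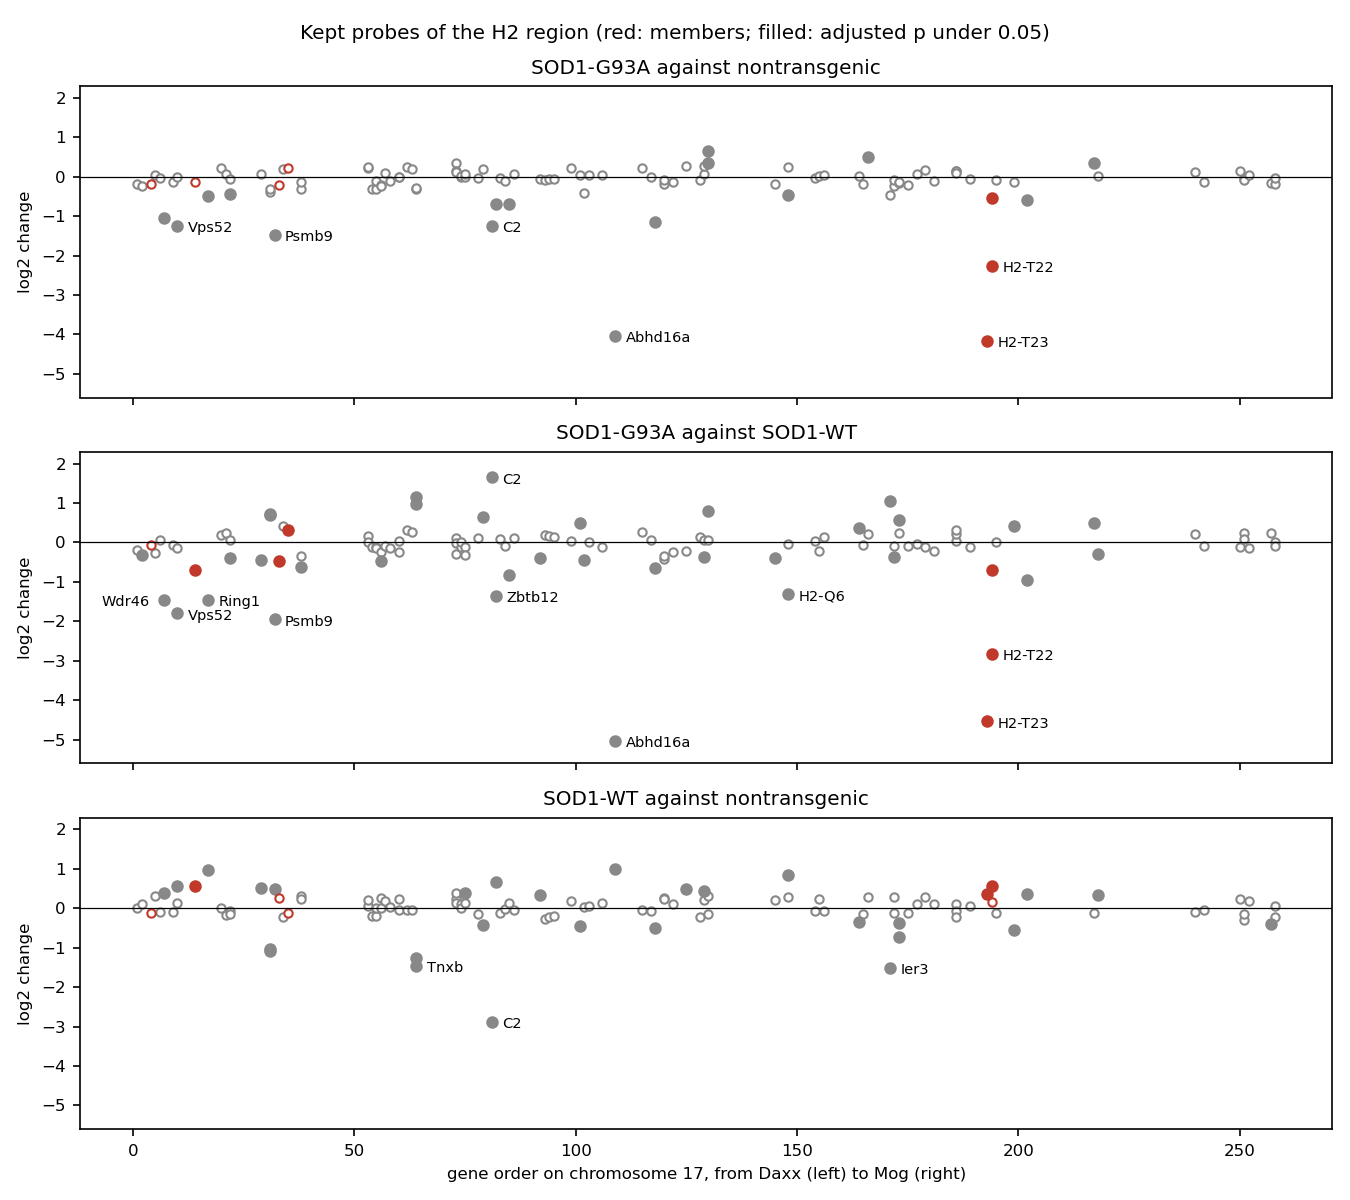
Log2 change (vertical axis) of the 115 kept probes between Daxx and Mog on chromosome 17, in gene order and not to scale in bases (horizontal axis), for each comparison, with members in red and filled points for an adjusted p under 0.05. H2-T23, the first H2-T22 probe and Abhd16a stand far below the other probes in both SOD1-G93A comparisons, and none of the 3 does in SOD1-WT against nontransgenic.

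The genes whose levels ran most like each changed member were found by Pearson's r over the 9 arrays, which fall into 3 groups. For H2-T23 they were Eif3j1 (r = 0.994), AA467197 (r = 0.992) and H2-T22 (r = 0.990). For the first H2-T22 probe they were Abhd16a (r = 0.997), H2-T23 (r = 0.990) and Ndufb10 (r = 0.990), and for the second Rapgef5 (r = 0.989), Bub1b (r = 0.967) and Efna5 (r = 0.963). H2-K1 ran most like Ttc39c (r = 0.978), Hspa1l (r = 0.970), whose gene lies in the H2 complex, and Pbld2 (r = 0.951). The closest to Tap1 were Eml4 (r = 0.921), Cyp4f13 (r = 0.917) and Tigd2 (r = 0.910), and to Tap2 Csf1 (r = 0.958), Gorasp2 (r = 0.957) and Arhgef1 (r = 0.950). No gene was shared between any of these lists, those of the nonclassical probes included. The lack of shared genes therefore does not set H2-K1 apart from the nonclassical probes.

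Eif3j1 and AA467197, the genes most like H2-T23, both lie on chromosome 2 within 25 listed genes of B2m, and this neighbourhood was looked at after those values had been seen. Of its 12 kept probes including B2m, 3 were lower and 0 higher in each SOD1-G93A comparison, beside 5.53% of all kept probes called lower against nontransgenic and 8.13% against SOD1-WT. In each case 2 of the 3 were Eif3j1 and AA467197, the genes that prompted the look. In SOD1-WT against nontransgenic 1 was higher and 0 lower, beside 13.5% of all kept probes called higher and 11.8% called lower. That 1 was Frmd5, higher by 0.32 (limma, adjusted p = 0.0494), a call held in 10 of 19 alternatives (adjusted p 0.0102 to 0.18). It was lost without any 1 of 7 arrays (nontransgenic replicates 2 and 3, all 3 of SOD1-G93A, and SOD1-WT replicates 1 and 2), with no filter and with the 2 groups alone. Eif3j1, a translation initiation subunit gene and the nearest measured neighbour on 1 side, had raw intensities of 91.3, 96.7 and 99.99 in nontransgenic, 26.4, 27.1 and 25 in SOD1-G93A, and 101, 99.9 and 104 in SOD1-WT cultures. It was undetected on all SOD1-G93A arrays, at least 3.51-fold lower than in nontransgenic and at least 3.59-fold lower than in SOD1-WT cultures (limma, adjusted p = 2.84e-09 and 8.27e-10). AA467197 was lower by -1.32 ± 0.10 and -1.45 ± 0.10. Spata5l1, likewise undetected in SOD1-G93A, was at least 1.21-fold lower than in nontransgenic cultures (limma, adjusted p = 0.00825), and Frmd5 was lower against SOD1-WT by -0.56 ± 0.11, while B2m between them did not pass.

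**Figure D4:**
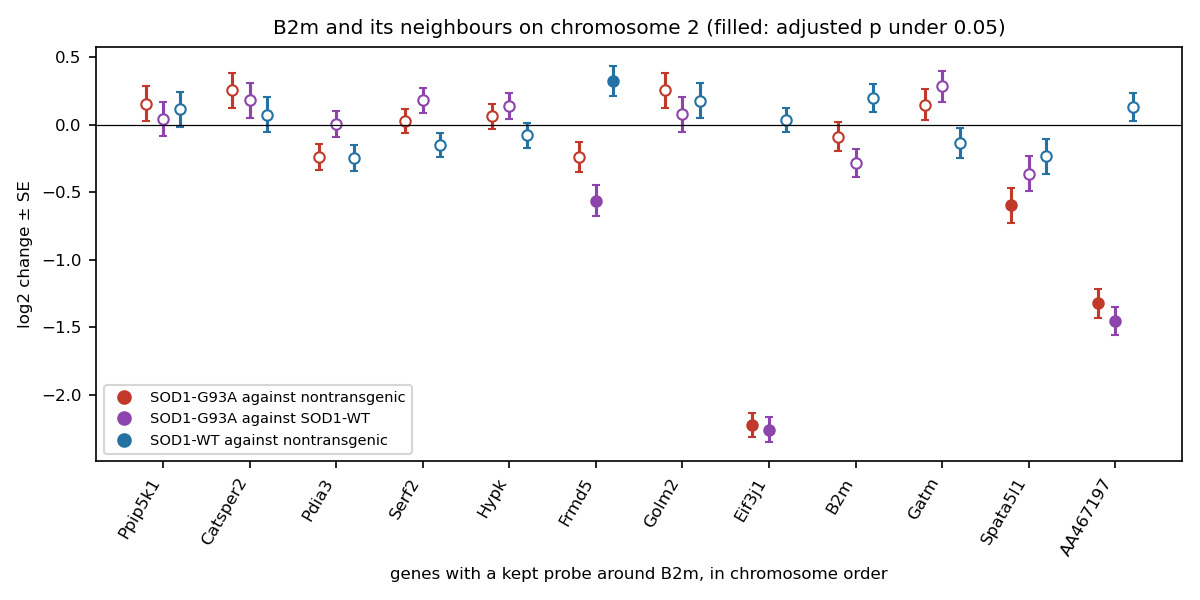
Log2 change ± SE (vertical axis) of B2m and its measured neighbours on chromosome 2 in chromosome order (horizontal axis), for the 3 comparisons, filled where the adjusted p was under 0.05. Values are fitted, those of Eif3j1 and Spata5l1 rest on undetected SOD1-G93A arrays, and AA467197 lies at -1.32 in SOD1-G93A against nontransgenic with B2m at -0.09.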

How the data were processed

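Per the labels and the series' design text, total RNA was amplified by 1 round of T7 transcription, labelled with biotin and read on Illumina arrays, and per the submitters' processing notes the authors used BeadStudio, version not given in the sources used here. Per the file headers the raw table holds 4 columns an array: the intensity averaged over beads, the count of beads, their standard error (a signal) and the detection p-value. In a second table by the authors the intensity values are normalised, and were found to be a straight line of the raw ones on each array (largest residual 0.00905), brought to a common mean of 204.3; it was used as an alternative.

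Raw intensities were processed with neqc of limma 3.58.1 (R 4.3.3, with the data.table package at 1.17.8): background from detection p-values, offset 16, quantile normalisation, log2. Probes with detection p under 0.01 on at least 3 of 9 arrays were kept (13972). All arrays entered 1 limma fit of 3 groups (6 residual and 7.52 prior degrees of freedom), with a two-sided test at 0.05 after adjusting each comparison over its kept probes (Benjamini-Hochberg). Alternatives were 2 other background corrections, 2 other normalisations, 2 other filters, 2 variance models, the 2 groups alone, a replicate block and leaving out each array. From the group means, deviations of equally numbered arrays correlated at -0.021 to 0.153, so numbers were not taken as pairs. The fit was tested on simulated data. Where a gene was detected on no array of a group, folds are bounds against the lowest signal of detected probes on each array.

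The members and lists (antigen processing, other class I, class II, interferon signalling, interferon-induced, class I receptors, and markers of astrocytes, microglia, fibroblasts, endothelium, oligodendrocytes, neurons and T or natural killer cells) were chosen with earlier results of these data known. Named genes were all members, up to 4 genes per list and comparison and up to 6 non-member genes of the H2 region per comparison with the smallest p past the threshold, and the 3 genes most like each changed member; the brightest kept probe of a gene was used for lists. Psmb8 and the B2m neighbours were chosen after their values were seen. The platform annotation gave a single symbol to 20984 probes, several to 1 and none to 3628. Gene order is that of GRCm38.p6, since the files name no build. The mouse Sod1 probe, which is no measure of the human transgene, differed by 0.17 (SOD1-G93A against nontransgenic, adjusted p = 0.396) and 0.33 (SOD1-WT against nontransgenic, adjusted p = 0.0338).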

Additional observations from a re-analysis of the deposited data

How the results depend on the processing

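Over the 24 changes of member probes, 453 values under alternatives were computed: 411 kept direction and side of the threshold, 40 lost a call, 1 gained one and 1 changed sign. The sign change was the second H2-T22 probe in SOD1-WT against nontransgenic without nontransgenic replicate 1 (-0.045, adjusted p = 0.842; up to 0.32 without other arrays), which was not called to begin with. The falls of H2-T23 and of the first H2-T22 probe in both SOD1-G93A comparisons kept their calls under each alternative that tested them, from -4.28 to -3.67 and -2.39 to -2.06 against nontransgenic. H2-T23 was not tested where a probe had to be detected on all 9 arrays. Without each array in turn, the member probes called numbered 2 to 3 in SOD1-G93A against nontransgenic, 3 to 6 against SOD1-WT (3 without SOD1-G93A replicate 1 or SOD1-WT replicate 1) and 1 to 3 in SOD1-WT against nontransgenic (1 without nontransgenic replicate 2 or 3 or SOD1-WT replicate 2). With no filter 1 was called in the last comparison in place of 3, as more probes enter the adjustment. The replicate block gave 3, 5 and 3 members called and changed no member's call but that of Tap2. Of 1175 alternative values of the 63 changes of other named genes, 51 lost a call and 0 changed sign. Calls of all kept probes stayed within 1.5 times of the main count. Probes near background, H2-D1 above all, limit what can be said of the classical genes, and 3 arrays per group limit the rest.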

Other observations

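MHC class II genes, which serve the display of ingested antigen by macrophages, were measured for 5 of 14 listed genes: 0 higher and 1 lower in SOD1-G93A against nontransgenic, 1 and 2 against SOD1-WT, and 1 and 1 in SOD1-WT against nontransgenic, with medians of -0.13, -0.35 and 0.26. The shares called were 20%, 60% and 40%, beside 11.4%, 16.4% and 27% of all measured genes. Cd74, the invariant chain, was lower in SOD1-G93A by -0.59 (limma, adjusted p = 0.00901) and -0.87 (adjusted p = 0.000337), the first of which was lost without nontransgenic replicate 2 or SOD1-G93A replicate 3. Both probes of H2-DMb1, a peptide exchange factor, were lower in SOD1-WT than in nontransgenic cultures, by -1.03 and -1.09, and higher in SOD1-G93A cultures than in SOD1-WT, by 0.72 and 0.71.

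Of the T and natural killer cell markers with a probe, 1 of 12 was kept, Thy1, which is also made by fibroblasts and neurons, and Cd3e, Cd8b1 and Ncr1 were detected on 0 arrays. The 9 astrocyte markers summed to 18328 to 19585 in nontransgenic, 20879 to 22582 in SOD1-G93A and 22715 to 24788 in SOD1-WT cultures, and the 15 microglial markers to 22486 to 26670, 25433 to 26761 and 23930 to 24976. Endothelial markers, 6 measured, summed to 539 to 597, 353 to 387 and 192 to 234 in the same order. Of these, 0 were higher and 2 lower in SOD1-G93A against nontransgenic, and 2 higher and 1 lower against SOD1-WT. In SOD1-WT against nontransgenic Cdh5 was at least 16.6-fold lower, while Flt1 and Emcn were higher by 0.50 and 0.69. The shares called were 33.3%, 50% and 50%, beside 11.4%, 16.4% and 27% of all measured genes. The 9 oligodendrocyte lineage markers summed to 8499 to 9727, 8047 to 8145 and 5550 to 5825, and 5 neuronal markers to 1155 to 1262, 1109 to 1209 and 984 to 1173. In SOD1-WT against nontransgenic Cldn11 and Mbp of the oligodendrocyte list were lower, by -3.73 and -0.38, Cnp was higher by 0.45, and 6 did not pass. Over the 3 comparisons 44.4%, 22.2% and 33.3% of the oligodendrocyte list were called, and 0%, 20% and 60% of the neuronal list. Of 13 fibroblast and meningeal markers, 2 were higher and 7 lower in SOD1-G93A against nontransgenic, 13 were higher against SOD1-WT, and 13 were lower in SOD1-WT against nontransgenic. These are 69.2%, 100% and 100% of the list, beside 11.4%, 16.4% and 27% of all measured genes.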
